A study of Mus musculus with 2 samples.

Results

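The cells described here are CD8 T cells of mouse aorta that lacked Ly6c2 and had little or no Ccl5, and they are called naive-like CD8 T cells. They were picked cell by cell from counts of unique molecular identifiers (UMIs), each UMI standing for 1 captured RNA molecule. A kept cell had at least 200 genes and at most 10% mitochondrial UMIs. A member then needed at least 1 UMI of the CD3 genes (Cd3d, Cd3e, Cd3g), at least 1 UMI of the CD8 coreceptor genes Cd8a and Cd8b1, and no Cd4 UMI. It could hold at most 1 UMI of the thymocyte genes Dntt, Rag1 and Arpp21, at most 2 of the B cell genes Cd79a, Cd79b and Ms4a1, at most 2 of the C1q genes C1qa, C1qb and C1qc of macrophages, at most 1 of Ccl5, and none of Ly6c2. These limits gave 107 members of 2957 kept cells, 43 of 896 in the library of the chow diet and 64 of 2061 in the WD library. All 17 genes of the rule were read from the counts, so their levels describe the choice and are no findings. Ly6c1 and Ly6c2 are close paralogs whose reads the counting may split, so a Ly6c2 count of 0 is uncertain to that extent.

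Both libraries came from ApoE-/- mice of strain C57BL6/J, which lack apolipoprotein E, a carrier of plasma lipids, and develop atherosclerosis. One group was fed a chow diet and the other a diet the labels call WD, and the age of the mice and the time on the diet are not stated in those labels. In each group the cells of 10 aortas were pooled, viable CD45+ leukocytes were sorted, and 1 single-cell 3' library was made. The control mice also lack apolipoprotein E, so no value here describes a normal aorta.

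Naive CD8 T cells have left the thymus but have not met their antigen. They recirculate through blood and lymphoid organs, which they enter with the help of the chemokine receptor Ccr7 and leave through the sphingosine phosphate receptor S1pr1. The transcription factors Lef1 and Tcf7 hold this state, and once a cell has been activated it lowers them and makes granzymes, Nkg7 and Ccl5. Memory CD8 T cells often carry Ly6c2, so a class without Ly6c2 and Ccl5 is set apart from effector and memory cells by what it lacks.

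The deposited files held 909 chow diet barcodes with 4608033 UMIs and 2077 WD barcodes with 8782901 UMIs. Members had a median of 3458 UMIs in the chow diet library, from 1493 to 14515, and of 3066 in the WD library, from 1414 to 11403. With 1 library for each diet there was no replicate, so no test and no p-value could be given for any difference. Intervals are exact 95% intervals for counting error only, and they do not cover differences between mice, pools or library preparations. Where a count was 0, the bound given on a share or a fold was taken from a floor of 3 counts, not from an exact interval. 3 barcodes occurred in both libraries, and 1 of them was a member in both. Without them 42 and 63 members were left, 4.70% and 3.06% of kept cells. Scrublet, a doublet caller, marked 4 and 2 barcodes (0.44% and 0.0963%), fewer than the expected 0.727% and 1.66%, so unseen doublets were possible. None of its calls was a member.

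The 4 genes taken as markers of these cells lie on different chromosomes in the GRCm38 build with the GENCODE vM21 annotation. Cd8b1, which encodes the beta chain of the CD8 coreceptor, is at chr6:71322788-71337494. Dapl1, the gene of a small death-associated protein-like protein, is at chr2:59484653-59505020. Lef1 is at chr3:131110471-131224356, and Igfbp4, which encodes a secreted binding protein of insulin-like growth factors, is at chr11:99041244-99054392. All 4 are protein coding and on the plus strand.

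Dapl1 and Igfbp4 are markers whose levels set the members apart from Ccl5-positive CD8 cells in the results that follow, so the 120 bases before their RefSeq start sites (chr2:59484533-59484652 and chr11:99041124-99041243 of GRCm38.p6, plus strand) are shown. Capitals mark TATAAA in both and GGGTGTGG, a KLF-type motif, in Igfbp4.
Dapl1: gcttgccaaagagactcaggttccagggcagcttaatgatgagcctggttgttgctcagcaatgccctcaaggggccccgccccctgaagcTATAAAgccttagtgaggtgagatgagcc
Igfbp4: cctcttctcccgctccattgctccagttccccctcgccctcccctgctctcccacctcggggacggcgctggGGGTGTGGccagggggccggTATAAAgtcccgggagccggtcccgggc
The TATAAA letters began 29 bases before the start of Dapl1 and 28 before that of Igfbp4, and GGGTGTGG began 48 bases before the start of Igfbp4. Both strands were searched, and the letters were picked after the sequences had been read. Of all 32851 promoter windows of the same length, 6.34% held TATAAA and 1.84% held GGGTGTGG. The TCF/LEF motif, searched as CTTTG followed by AA, by AT, by TA or by TT, was in neither window and in 6.46% of all windows. A match is a description of the letters and not a site.

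The other markers of naive CD8 T cells were found in part of the members, not in all. Dapl1 had a UMI in 14 of 43 chow diet members (32.6%, 19.1 to 48.5) and in 21 of 64 WD members (32.8%, 21.6 to 45.7). Lef1 had one in 26 (60.5%) and 44 (68.8%) members. Igfbp4 had one in 12 (27.9%) and 17 (26.6%) members. These shares lay far above those of B cell-gated cells, which had a median depth of 2810 and 2448 UMIs and which should lack the genes. There, Lef1 was found in 2.27% and 0.411% of cells, Dapl1 in 0.758% of chow diet cells and 0 of 486 WD cells, and Igfbp4 in 0 of 132 and 0 of 486 cells, which allows shares of up to 2.27% and 0.617%. At least 1 of these 3 markers was found in 31 of 43 chow diet members (72.1%) and 52 of 64 WD members (81.3%), all 3 in 7 and 6 members, and all 4 with Cd8b1 in 6 and 6.

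Other genes of naive cells were present in similar shares. Klf2, which sustains S1pr1, had a UMI in 81.4% of chow diet and 64.1% of WD members, and B cell-gated cells, which also express it, had 53.8% and 47.9%. Ccr7, which B cells carry too (90.2% and 89.1% of B cell-gated cells), was found in 51.2% and 60.9% of members, Tcf7 in 51.2% and 59.4%, and S1pr1 in 46.5% and 43.8%. The list of 22 genes of naive cells and recirculation gave a median of 20 UMIs in a chow diet member and 21 in a WD member. Every chow diet member and 63 of 64 WD members held at least 3 UMIs of it. That limit did not set members apart, since 130 of 132 and 479 of 486 B cell-gated cells passed it too, with medians of 12 and 11 UMIs. CD8 cells with at least 2 Ccl5 UMIs passed it in 75 of 75 and 230 of 231 cells, with medians of 19 and 16 UMIs.

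Most genes of killing were absent or rare. Of 25 genes of cytotoxic effector cells, 10 had no UMI in the chow diet members and 11 had none in the WD members. Granzyme B (Gzmb), perforin (Prf1), interferon gamma (Ifng), the factor Tbx21 and the natural killer receptors Klrc1 and Klre1 were at 0 UMIs in both libraries. Nkg7, a granule membrane protein, was present in 19 of 43 chow diet members (44.2%) and 38 of 64 WD members (59.4%), against 2.27% and 1.44% of B cell-gated cells. Klrd1 was found in 9 and 25 members, and Ctsw in 8 and 18. At least 3 UMIs of the 25 genes were held by 44.2% of chow diet and 67.2% of WD members, against 8.33% and 9.67% of B cell-gated cells.

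Members differed among themselves by how much coreceptor RNA they held. The sum of Cd8a and Cd8b1 UMIs had a median of 2 in chow diet members and 6 in WD members, with highest values of 17 and 19. A sum of exactly 1, the lowest the rule accepts, was found in 18 of 43 chow diet members (41.9%) and 14 of 64 WD members (21.9%). Median depth was 3158 UMIs in the chow diet cells with a sum of 1 and 3690 in those with 2 or more, and 3091 and 3066 in the WD cells. A single coreceptor UMI also occurred where none is expected, since Cd8b1 was found in 12 of 132 chow diet B cell-gated cells (9.09%) and in 9 of 486 WD ones (1.85%). How far free RNA accounts for members with 1 UMI was not tested. The chow diet library also held the larger share of thymocyte-gated cells, which had at least 2 UMIs of the thymocyte genes, with 193 of 896 kept cells (21.5%) against 208 of 2061 (10.1%). The part of these cells in the result was not tested.

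The markers Dapl1, Lef1 and Igfbp4 lay mostly in the cells with 2 or more coreceptor UMIs, in both libraries. Dapl1 was found in 12 of 25 such chow diet cells and 2 of 18 cells with 1 UMI, and in 21 of 50 such WD cells and 0 of 14 with 1 UMI, which allows a share of up to 21.4%. After each cell was thinned to 1000 UMIs, Dapl1 was left in 32% of the cells with 2 or more coreceptor UMIs in either library and in none with 1 UMI. Lef1 went from 8 of 18 to 18 of 25 in the library of the chow diet and from 6 of 14 to 38 of 50 in the WD library. Igfbp4 went from 3 of 18 to 9 of 25 and from 1 of 14 to 16 of 50. Ccr7, Tcf7, Klf2 and S1pr1 were also in a larger share of the cells with more, in both libraries. The survival receptor gene Il7r did not follow, with 10 of 18 and 10 of 25 chow diet cells and 5 of 14 and 19 of 50 WD cells. Satb1 was in 9 of 18 and 19 of 25 chow diet cells, but in near equal shares of WD cells, 10 of 14 and 36 of 50. The split uses genes of the rule and was made after the data had been seen, so these counts are descriptions.

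Nkg7 and the gut-homing receptor Ccr9 followed the same side. Nkg7 was in 1 of 18 chow diet cells with 1 coreceptor UMI and 18 of 25 with more, and in 4 of 14 and 34 of 50 WD cells. Ccr9, which marks cells late in thymic maturation and cells bound for the gut, was in 2 of 18 and 8 of 25 chow diet cells and in 1 of 14 and 19 of 50 WD cells.

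Some genes of activated and memory T cells, but not all of those counted, lay on the other side. S100a6, a calcium-binding protein of activated and memory cells, was in 8 of 18 chow diet cells with 1 coreceptor UMI and 1 of 25 with more, and in 5 of 14 and 2 of 50 WD cells. S100a4 was in 7 of 18 and 0 of 25 chow diet cells and 3 of 14 and 2 of 50 WD cells. The adhesion receptor Cd44, a classical mark of antigen-experienced T cells, was in 5 of 18 and 1 of 25 and in 4 of 14 and 1 of 50. Cd69, an early activation receptor, went opposite ways, with 4 of 18 and 14 of 25 chow diet cells and 7 of 14 and 10 of 50 WD cells. Crip1 was in 14 of 18 and 17 of 25 and in 10 of 14 and 34 of 50, and the chemokine receptor Cxcr6 in 4 of 18 and 6 of 25 and in 3 of 14 and 10 of 50. Rora, a nuclear receptor of innate lymphoid and some T cells, was in 6 of 18 and 0 of 25 and in 3 of 14 and 5 of 50. The growth factor gene Areg was in 2 of 18 and 3 of 14 cells with 1 UMI, and Cd163l1, a scavenger receptor of gamma delta T cells named here after its values were seen, was in 3 of 18 and 1 of 14. Neither was found in a cell with 2 or more coreceptor UMIs, 0 of 25 and 0 of 50, which allows shares of up to 12% and 6%.

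**Figure D1:**
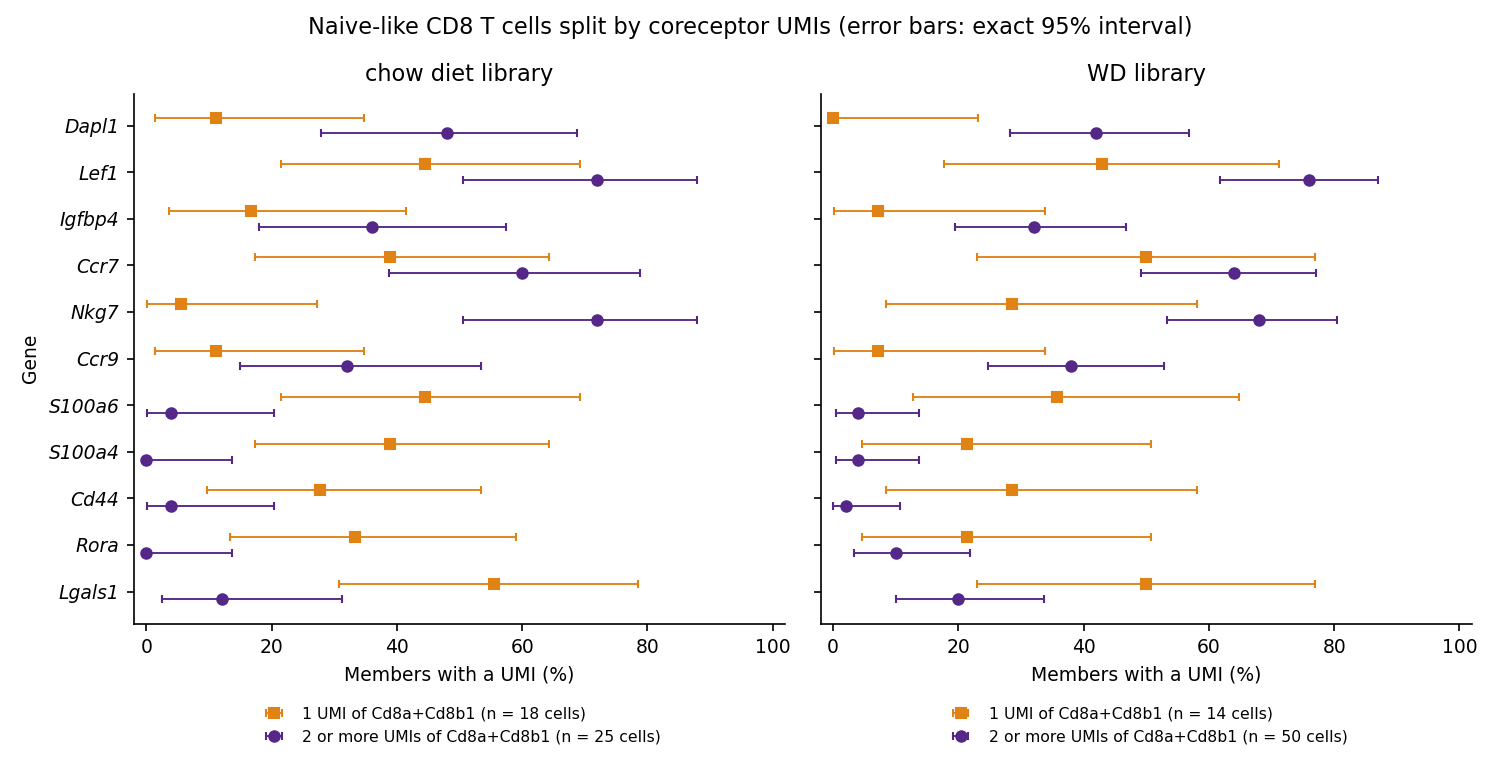
Share of members with a UMI of each of 11 genes (horizontal axis, percent) in the chow diet library (left) and the WD library (right). Squares are cells with 1 UMI of Cd8a and Cd8b1 (18 and 14 cells), circles are cells with 2 or more (25 and 50 cells), and bars are exact 95% intervals. Dapl1, Lef1, Igfbp4, Ccr7, Nkg7 and Ccr9 lie higher in the circles, and S100a6, S100a4, Cd44, Rora and Lgals1 lie higher in the squares, in both libraries.

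Genes of other lineages stood in a few members. Of the 12 listed B cell genes, which include the antigen presentation genes Cd74 and H2-Aa, at least 3 UMIs were found in 11 of 43 chow diet members (25.6%) and 11 of 64 WD members (17.2%), with up to 1022 and 896 UMIs in 1 cell. The B cell factor Pax5 was at 0 UMIs in both libraries. Of the macrophage genes, 7 chow diet and 6 WD members held at least 3 UMIs, and of the dendritic cell genes, 3 and 3. Of the 955 Cd74 UMIs of chow diet members, 932 were in the 18 cells with 1 coreceptor UMI. In the WD library the split was 519 in the 14 cells with 1 UMI and 721 in the 50 others.

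Natural killer cell genes summed to 6 UMIs in the chow diet members and 8 in the WD members, with the defining receptor genes Ncr1 and Klrb1c at 0. Genes of vascular cells summed to 12 and 11 UMIs, with Acta2, Cdh5 and Col1a1 at 0. Of CD4 T cell genes beside the gated one, 64 and 133 UMIs were found. Leaving out cells with 10 or more UMIs of the B cell, macrophage and dendritic cell genes left 38 and 60 members, and results that turn on them are given below.

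Cells just outside the limits show how narrow some of them are. The CD8 limit alone kept out 89 chow diet and 167 WD cells, all with a coreceptor sum of 0, which is 1 UMI short of it. The Ly6c2 limit alone kept out 19 chow diet and 48 WD cells, of which 9 and 19 had a single Ly6c2 UMI. The Ccl5 limit alone kept out 29 and 125 cells, of which 0 and 1 had 2 UMIs, the first value past the limit. The thymocyte limit alone kept out 61 and 83 cells, of which 5 and 4 had 2 UMIs. Inside the limits, 3 and 9 members had 1 Ccl5 UMI and 6 and 6 had 1 thymocyte UMI.

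The share of kept cells in the class was 4.80% (3.50 to 6.41) in the library of the chow diet and 3.11% (2.40 to 3.95) in the WD library. Among cells that passed the CD8 limits whatever their Ccl5 and Ly6c2 counts, it was 43 of 137 (31.4%, 23.7 to 39.9) and 64 of 343 (18.7%, 14.7 to 23.2). Among all cells that passed the T cell limits it was 43 of 348 (12.4%) and 64 of 698 (9.17%). The share was therefore higher in the chow diet library with each of the 3 denominators, and the intervals did not overlap for the CD8 denominator.

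The gap was smaller without the cells with 1 coreceptor UMI. Counted from 2 coreceptor UMIs up, the class was 25 of 896 kept cells (2.79%, 1.81 to 4.09) in the library of the chow diet and 50 of 2061 (2.43%, 1.81 to 3.19) in the WD library. Of CD8-gated cells with at least 2 UMIs it was 22.7% (15.3 to 31.7) and 16.9% (12.8 to 21.7). Among all cells that passed the T cell limits it was 7.18% (4.70 to 10.4) and 7.16% (5.36 to 9.34), nearly equal shares. The intervals then overlapped with each denominator. Without thymocyte-gated cells in the denominator, all members made up 6.12% and 3.45% of kept cells.

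3 other T cell classes under the same limits were set beside the members. They were Ly6c2-positive CD8 cells with at most 1 Ccl5 UMI (19 chow diet and 48 WD cells), Ccl5-positive CD8 cells with at least 2 Ccl5 UMIs (75 and 231), and CD4-gated T cells with a Cd4 UMI, no CD8 or Ly6c2 UMI and at most 1 Ccl5 UMI (49 and 67). The classes were chosen on expression, and the comparisons are descriptions with no test. Levels are CPM, the UMIs of a gene summed over a class and scaled to the summed UMIs of that class.

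Dapl1 stood at 349 CPM (266 to 451) in chow diet members and 417 CPM (337 to 509) in WD members. It was higher in the Ly6c2-positive CD8 cells, with 925 and 729 CPM. CD4-gated cells had 121 and 179 CPM, and Ccl5-positive CD8 cells had 104 and 103 CPM. The order was the same in both libraries, and only the lowest pair overlapped in its intervals, in the chow diet library.

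Lef1 was at a like level in 3 classes. Members had 373 and 477 CPM, CD4-gated cells 453 and 472 CPM, and Ly6c2-positive cells 540 and 477 CPM, with overlapping intervals in each library. Ccl5-positive cells had 137 and 103 CPM of Lef1.

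Igfbp4 set the members and the CD4-gated cells apart from Ccl5-positive cells. It stood at 142 and 169 CPM in members, 150 and 289 CPM in CD4-gated cells, 220 and 181 CPM in Ly6c2-positive cells, and 3.05 and 9.95 CPM in Ccl5-positive cells. Only 1 of 75 and 5 of 231 Ccl5-positive cells had an Igfbp4 UMI. Counting cells by the 3 markers Dapl1, Lef1 and Igfbp4, at least 1 was found in 18 of 19 and 47 of 48 Ly6c2-positive CD8 cells (94.7% and 97.9%). The share was 72.1% and 81.3% in members, 65.3% and 67.2% in CD4-gated cells, and 34.7% and 27.7% in Ccl5-positive cells. The Ly6c2-positive cells were deeper than the members, with median depths of 4492 and 3742 UMIs. After thinning to 1000 UMIs, Dapl1 was left in 47.4% and 52.1% of them against 18.6% and 25% of members.

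**Figure D2:**
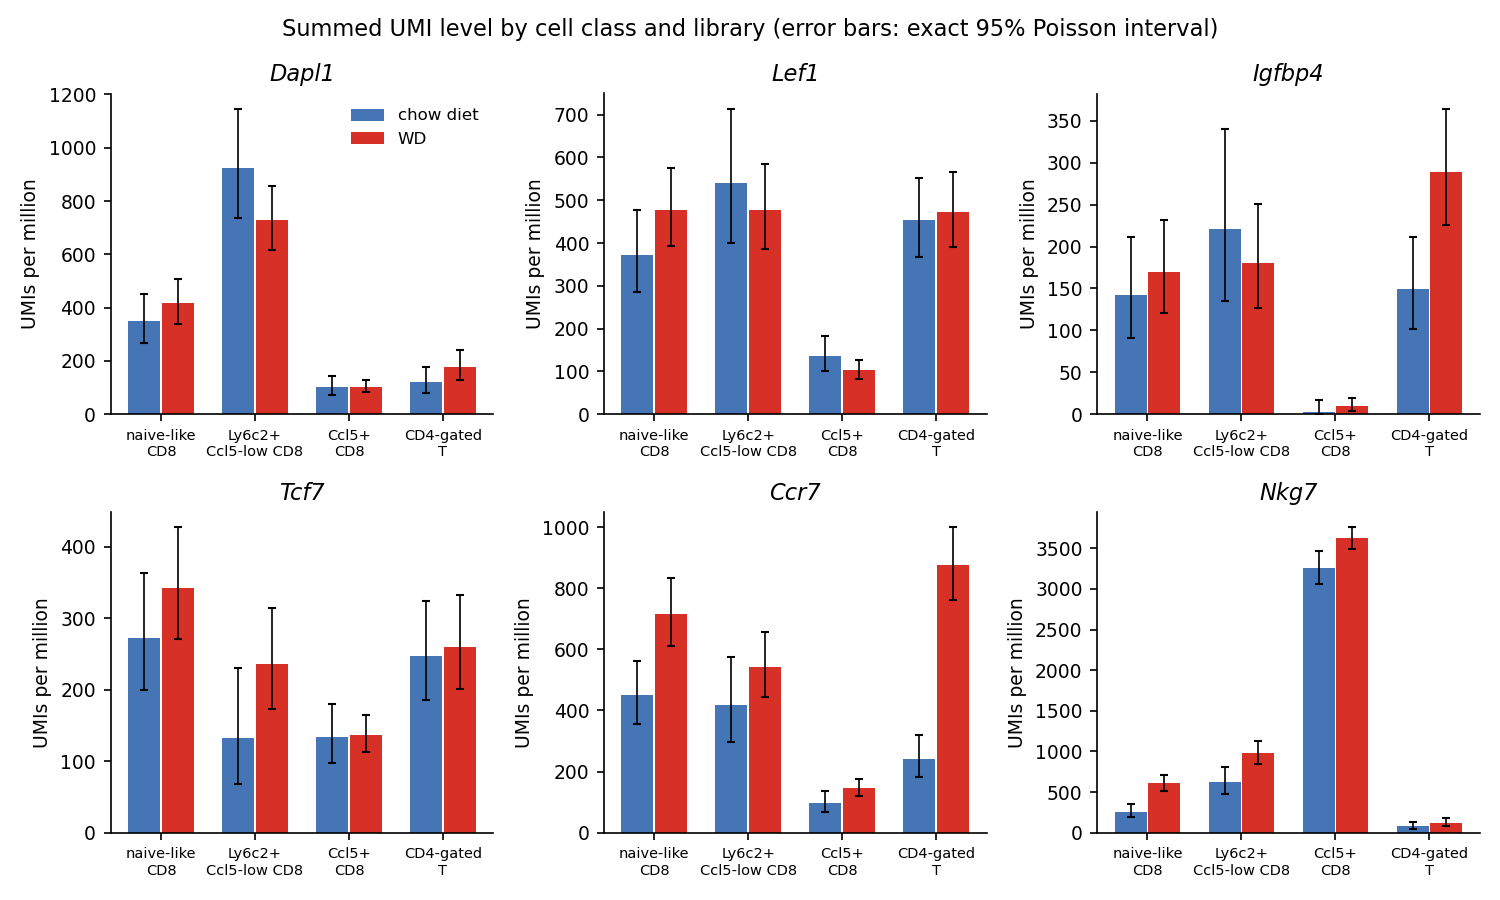
Summed level in CPM (vertical axes, each from 0) of Dapl1, Lef1, Igfbp4, Tcf7, Ccr7 and Nkg7 in the 4 T cell classes (horizontal axes), with blue bars for the chow diet library, red bars for the WD library and exact 95% Poisson intervals as error bars. Dapl1 is highest in the Ly6c2-positive cells, Igfbp4 is nearly absent from the Ccl5-positive cells, and Nkg7 stands at 3259 and 3625 CPM there against 261 and 607 CPM in the members.

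Against Ccl5-positive CD8 cells the members had far less of the cytotoxic genes. Of the 4721 genes with at least 30 UMIs outside the rule, 202 (4.28%) were at least 2-fold lower in the members in both libraries and 108 (2.29%) at least 2-fold higher. Of the 24 measured cytotoxic genes, 22 were lower in both libraries, 18 of them at least 2-fold. Their median log2 ratio was -3.64 in the library of the chow diet and -4.97 in the WD library, or -3.17 and -2.71 with genes at 0 UMIs set to their bound. The median over all measured genes was -0.19 and -0.07.

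Gzmb had no UMI in members of either library and 256 and 319 UMIs in Ccl5-positive cells, so it was at least 43.9-fold and 30.5-fold lower (a floor of 3 counts over the members of each library). Klrc1, an inhibitory receptor of killer cells, was at least 21.1-fold and 20.4-fold lower, and Xcl1, a chemokine for dendritic cells, at least 18.2-fold and 16.7-fold lower. Granzyme A (Gzma) had 2 and 1 UMIs in members against 357 and 664, a log2 ratio of -6.30 and -7.28, and the ratio lay below 0.0396 and 0.0294 by its interval. Nkg7 was lower by less, with log2 ratios of -3.64 and -2.58. Klrd1, the partner chain of Klrc1, differed least of those named, with log2 ratios of -1.05 and -0.54 and a WD interval of 0.484 to 0.958 for the ratio.

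Naive genes were higher in the members. Of 20 measured genes of the list, 15 were higher in both libraries, 8 of them at least 2-fold, with a median log2 ratio of 0.87 and 0.77. Igfbp4 led them at 4.83 and 3.96. Dapl1 reached 1.73 and 2.00, Lef1 1.43 and 2.20, and Ccr7 2.18 and 2.28. Not every gene of the list followed: Ms4a4b, a membrane protein of naive and memory T cells, stood at 397 and 889 CPM in members and 1549 and 1611 CPM in Ccl5-positive cells, and the survival gene Bcl2 at 82.9 and 204 CPM against 335 and 384 CPM. Ramp1, a receptor subunit for the neuropeptide CGRP, was among the genes with the highest ratios, at 3.41 and 4.06, and came from 14 and 23 members. Ccr9 had 82.9 and 191 CPM in members and 21.3 and 11.2 CPM in Ccl5-positive cells.

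Most of the other highest ratios came from very few cells. Lyz2, the lysozyme gene of myeloid cells, had 211 UMIs in 4 chow diet members and 155 UMIs in 10 WD members, and Thbs1, Wfdc17, Ptafr, Cd14, Ifitm1, Csf2rb and Tmem176b came from 1 to 6 members in each library. Where both classes needed at least 2 coreceptor UMIs, 45 of 4205 genes (1.07%) were at least 2-fold higher and 300 (7.13%) at least 2-fold lower. Without cells holding 10 or more UMIs of B cell, macrophage and dendritic cell genes, 53 genes were higher. Igfbp4 stayed at log2 ratios of 4.88 and 4.26 in the cells with at least 2 coreceptor UMIs, and Dapl1 at 2.72 and 2.41.

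**Figure D3:**
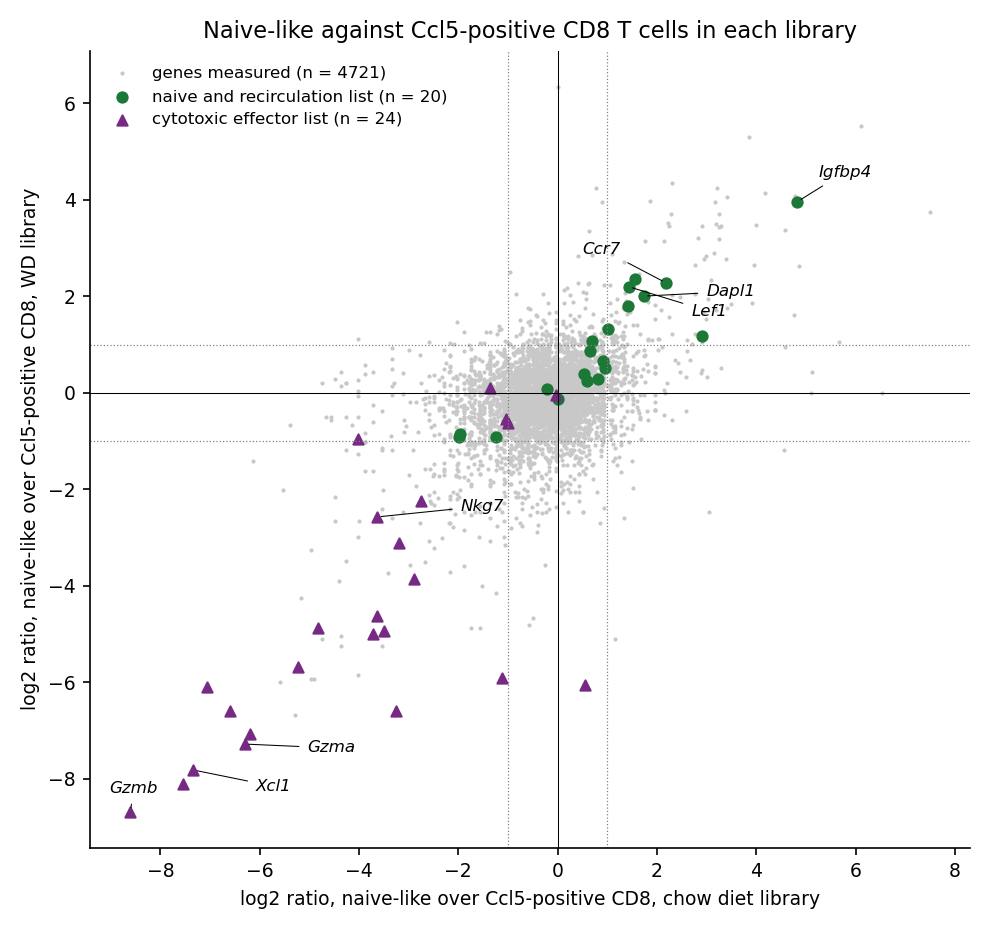
Log2 ratio of members over Ccl5-positive CD8 T cells in the chow diet library (horizontal axis) and the WD library (vertical axis) for 4721 genes (grey), with the 20 measured naive genes as green circles and the 24 measured cytotoxic genes as purple triangles. Dotted lines mark 2-fold. The cytotoxic genes lie to the lower left, with Gzma, Gzmb and Xcl1 farthest out, and Igfbp4, Ccr7, Dapl1 and Lef1 lie to the upper right; 0 counts are placed by the added 0.5 UMIs and are no bounds.

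Against the Ly6c2-positive CD8 cells few genes were lower in the members in both libraries. Of 2461 genes, 61 (2.48%) were at least 2-fold higher in the members and 4 (0.163%) at least 2-fold lower. The share higher was near the 2.29% found against Ccl5-positive cells, and the share lower was below the 4.28% found there. Ctsw, a protease of cytotoxic cells, was lower, with 65.1 and 117 CPM in members and 264 and 296 CPM in Ly6c2-positive cells, log2 ratios of -1.96 and -1.32. Nkg7 had 261 and 607 CPM in members and 628 and 980 CPM in Ly6c2-positive cells, log2 ratios of -1.26 and -0.69. Dapl1 was also lower, by 1.40 and 0.80 on the log2 scale, while Lef1 had log2 ratios of -0.53 and -0.0005, with intervals that held 1 in both libraries. Of 15 measured memory and activation genes, 7 were higher in the members in both libraries and 1 lower. Their median log2 ratios were 0.44 and 0.31. Over all 2461 genes, 876 were higher and 483 lower in both, with medians of 0.10 and 0.13. With at least 2 coreceptor UMIs, 3 of 12 memory and activation genes were higher and 6 lower, with medians of -0.23 and -0.17.

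Of the 5 measured B cell genes, all were higher in the members in both libraries and 4 were at least 2-fold higher, with median log2 ratios of 1.55 and 1.21. With at least 2 coreceptor UMIs 4 were higher, none 2-fold, with medians of 0.27 and 0.57, and the part of B cell RNA in the 61 genes was not tested. Of 11 measured thymocyte maturation genes, 6 were higher in both libraries, 2 of them at least 2-fold, and none lower. Their median log2 ratios were 0.67 and 1.25. Over the 5 measured with at least 2 coreceptor UMIs, 1 was higher and none lower, with medians of 0.29 and 1.16. The part of thymocyte RNA in these values was not tested.

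Among the other genes higher in the members, Ikzf2, which encodes the transcription factor Helios, had 8 UMIs in 6 chow diet members and 43 UMIs in 19 WD members, against 0 and 7 UMIs in Ly6c2-positive cells. The chow diet ratio was 1.43-fold with the 0 set to the floor, but its exact interval began at 0.917 and so held 1. The interval of the WD ratio began at 2.36. Lmo4, a transcription cofactor, had log2 ratios of 3.17 and 2.36 from 9 and 8 members. Rora, Areg and Tmem176b were in the same set and came from 2 to 8 members in each library. With at least 2 coreceptor UMIs in both classes the counts were 14 higher (0.8%) and 2 lower (0.114%) of 1750 genes. The Ikzf2 log2 ratios were then 3.35 and 2.38, and those of Lmo4 were 1.38 and 1.20.

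Against CD4-gated T cells, the members had similar levels of naive genes over the list. Of 3134 genes, 17 (0.542%) were at least 2-fold higher in the members in both libraries and 48 (1.53%) at least 2-fold lower. The median log2 ratio of 20 measured naive genes was 0.20 and -0.07, against -0.14 and -0.02 over all genes. Nkg7 was higher in members, with log2 ratios of 1.68 and 2.25. Klrd1 was higher at 1.43 and 1.89, Ctsw at 1.38 and 1.23, and Plcxd2, a phospholipase-like gene, at 2.60 and 1.84.

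Genes of T cell help and costimulation were lower. Tnfrsf4, the costimulatory receptor OX40, had 2 and 3 UMIs in members and 67 and 45 in CD4-gated cells, and log2 ratios of -4.45 and -3.61. Tnfsf8, the ligand of CD30, had 1 and 4 UMIs against 68 and 50. The CD40 ligand gene Cd40lg, by which helper T cells act on B cells, had 3 and 1 UMIs against 33 and 19, and log2 ratios of -2.94 and -3.62. Of the 17 measured memory and activation genes, 11 were lower in both libraries and none was higher in both, with median log2 ratios of -0.62 and -0.58. Over all 3134 genes, 984 were lower and 674 higher in both. With at least 2 coreceptor UMIs, 13 of 15 measured memory and activation genes were lower in both, 9 of them at least 2-fold, with medians of -2.27 and -1.38. Among cells with at least 2 coreceptor UMIs, 145 of 2679 genes (5.41%) were at least 2-fold lower and 24 (0.896%) higher.

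WD over chow diet levels within the members showed small ratios for most genes. Of 1527 genes with at least 30 UMIs, 57 (3.73%) were at least 2-fold higher and 68 (4.45%) at least 2-fold lower in the WD library, and the median log2 ratio was 0.06. In the cells with at least 2 coreceptor UMIs, 51 (5.76%) of 886 genes were higher and 27 (3.05%) lower. Since the chow diet members held more cells with 1 coreceptor UMI (41.9% against 21.9%), the main ratios are given with and without those cells. Over all 1527 genes, 846 were higher and 681 lower in the WD library, and without the 1-UMI cells 494 and 392 of 886. Genes of B cells moved with that choice: the 5 measured ones had a median log2 ratio of 0.13 over all members and 4.04 without the 1-UMI cells, and macrophage genes went from -0.89 over 5 genes to 1.40 over 4. Their part in the ratios of other genes without the 1-UMI cells was not tested. Diet, pool and library cannot be told apart here.

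Of the 18 measured naive genes, 12 had higher and 6 lower WD levels, with a median log2 ratio of 0.29 over all members and 0.13 with at least 2 coreceptor UMIs. Lef1 had 63 UMIs in chow diet members and 110 in WD members, a log2 ratio of 0.35 with a ratio interval of 0.931 to 1.77, and 0.18 without the 1-UMI cells. Dapl1 had 59 and 96 UMIs, a log2 ratio of 0.25, and -0.16 with at least 2 coreceptor UMIs, so its sign depended on the cells with 1 UMI. Igfbp4 and Tcf7 had log2 ratios of 0.25 and 0.33, and 0.42 and 0.21 without the 1-UMI cells. Klf2 had 929 and 816 CPM and S1pr1 243 and 182 CPM, log2 ratios of -0.19 and -0.41, and -0.26 and -0.32 without those cells. The intervals of these 4 genes held 1 in both sets.

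2 naive genes passed 2-fold. Ms4a4b had 67 UMIs in 27 chow diet members and 205 in 46 WD members, 397 and 889 CPM, a log2 ratio of 1.16 with a ratio interval of 1.69 to 3.00, and 0.84 with at least 2 coreceptor UMIs. Bcl2 had 14 and 47 UMIs, 82.9 and 204 CPM, a log2 ratio of 1.27, and 0.86 without the 1-UMI cells. Ccr7 had 76 and 165 UMIs, 450 and 716 CPM, a log2 ratio of 0.67 with a ratio interval of 1.21 to 2.12, and 46 of its WD UMIs came from 1 cell. Without the highest cell of each library the Ccr7 log2 ratio was 0.47, and without cells rich in B cell, macrophage and dendritic cell genes it was 0.20. Without the 1-UMI cells it was 0.87 from 38 and 131 UMIs, which include the 46 of that cell.

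Nkg7 was the 1 cytotoxic gene above 2-fold. It had 44 UMIs in chow diet members and 140 in WD members, 261 and 607 CPM, with at most 7 and 16 UMIs in 1 cell. The log2 ratio was 1.21 with a ratio interval of 1.65 to 3.35, and 0.54 with at least 2 coreceptor UMIs, where the interval was 1.02 to 2.12. Klrd1 and Ctsw had log2 ratios of 0.51 and 0.82, and 0.63 and 0.40 without the 1-UMI cells, with intervals that held 1 in both sets. Of the 25 listed cytotoxic genes, 5 were measured, and their median log2 ratio was 0.51 over all members and 0.58 without the 1-UMI cells. Id2, a regulator of effector cells, was the 1 lower, at -0.28, and stood at 0.84 without the 1-UMI cells.

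Plac8 and Cd48 stood among the 10 highest ratios whose intervals excluded 1. Plac8 had 10 UMIs in 8 chow diet members and 79 UMIs in 21 WD members, a log2 ratio of 2.48 with a ratio interval of 2.99 to 12.5, but 37 of its WD UMIs were in 1 cell, and without the highest cell of each library it was 1.89. Plac8 is also a B cell gene here, at 1330 and 1436 CPM in B cell-gated cells, and without members rich in B cell, macrophage and dendritic cell genes the log2 ratio was 1.42. Without the 1-UMI cells it was 1.25, with a ratio interval of 1.16 to 5.67. Cd48, an adhesion ligand of the CD2 family, had 6 UMIs in 5 chow diet members and 37 UMIs in 24 WD members, with at most 2 and 5 in 1 cell. Its log2 ratio was 2.10 with a ratio interval of 1.89 to 13.1, and 1.59 with at least 2 coreceptor UMIs, where the interval was 1.10 to 12.7.

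Ikzf2 had 8 UMIs in 6 chow diet members and 43 in 19 WD members, and a log2 ratio of 1.92. Without the 1-UMI cells the Ikzf2 log2 ratio was 1.11, and the ratio interval of 0.820 to 7.58 held 1. Ccr9 had 14 UMIs in 10 and 44 in 20 members, a log2 ratio of 1.18 with a ratio interval of 1.24 to 4.55, and 1.03 with at least 2 coreceptor UMIs. Taf10, Fam32a, Bub3, Ndufa12 and Dmac1, genes of transcription, cell division and mitochondria, came from 5 to 9 chow diet and 16 to 30 WD members, with log2 ratios of 1.70, 1.69, 1.64, 1.85 and 1.71. Without the 1-UMI cells they were 1.54, 1.45, 2.03, 1.22 and 1.05, and the intervals of Ndufa12 and Dmac1 then held 1. The other high genes rested on few cells. The 41 UMIs of Csf2, the gene of the growth factor GM-CSF, were all in 1 WD member, and 33 of the 46 WD UMIs of Fabp5, a fatty acid-binding protein, were in 1 cell.

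Most of the 10 lowest ratios rested on chow diet cells with 1 coreceptor UMI or on few cells, and Gm26917 and Cxcr4 came from more. S100a4 had 59 UMIs in 7 chow diet members and 19 in 5 WD members, a log2 ratio of -2.05. Without the 1-UMI cells it had 0 and 15 UMIs, and the sign turned. Cxcr4, a chemokine receptor, had 42 UMIs in 15 chow diet members and 12 in 10 WD members, with 20 of the chow diet UMIs in 1 cell. Its log2 ratio was -2.20, -1.53 without the highest cell of each library, and -1.02 in the cells with at least 2 coreceptor UMIs, where the ratio interval of 0.159 to 1.38 held 1. The metallothionein gene Mt2 had 32 UMIs in 3 chow diet members and none in WD members, at least 14.6-fold lower by the floor.

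Single cells held most UMIs of 3 others. All 31 chow diet UMIs of Il17f, a cytokine gene of gamma delta and helper T cells, were in 1 cell. Of the 120 Retnla UMIs of chow diet members, 118 were in 1 cell. Gm26917, a noncoding RNA gene, had 177 UMIs in 32 chow diet members, 124 of them in 1 cell, and 22 UMIs in 20 WD members. Its log2 ratio was -3.42, and -1.90 without the highest cell of each library. Without the 1-UMI cells it was -4.001 from 150 and 17 UMIs, which include the 124 of the 1 chow diet cell. Without cells rich in B cell, macrophage and dendritic cell genes it was -1.56. Mt1, Cd209a, Capg and Tmem176a came from 3 to 7 chow diet members. In the cells with more than 1 coreceptor UMI, Mt1, Cd209a, Capg and Tmem176a had 0 to 2 chow diet UMIs and log2 ratios above 0.

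The lists of activation turned with the 1-UMI cells. Of 13 measured memory and activation genes, 5 were higher and 8 lower in the WD cells, with a median log2 ratio of -0.55. Over the 8 measured in cells with at least 2 coreceptor UMIs, 6 were higher and 2 lower, with a median of 0.74. S100a6 had 787 and 295 CPM over all members, a log2 ratio of -1.41, and 1.73 from 2 and 14 UMIs without the 1-UMI cells. Crip1, a small protein of memory T cells, went from -0.71 to 0.72.

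Of 18 measured immediate early and dissociation genes, 14 had lower WD levels, with a median log2 ratio of -0.37, and -0.17 with at least 2 coreceptor UMIs. Junb had 1936 and 1345 CPM, a log2 ratio of -0.52, and 0.49 without the 1-UMI cells. Nfkbia, the inhibitor of NF-kappa B, went from -1.11 to 0.22. Hspa8, a constitutive heat shock protein, had 2960 and 3128 CPM. T cell receptor signalling genes had a median of -0.09 over 19 genes. Lck, the kinase bound by the coreceptors, was at 468 and 659 CPM, a log2 ratio of 0.49, and 0.48 without the 1-UMI cells.

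Of 7 measured interferon response genes, 5 had higher WD levels, with a median log2 ratio of 0.32, and 0.57 with at least 2 coreceptor UMIs. Ifi27l2a was lower, with 983 and 777 CPM, a log2 ratio of -0.34, and -0.27 without the 1-UMI cells. All 5 measured cell cycle genes had higher WD levels over all members, with a median log2 ratio of 1.00, but it was -0.08 over the 4 measured with at least 2 coreceptor UMIs. Of the 125 WD UMIs of Hmgb2, a chromatin protein of dividing cells, 80 were in 1 cell.

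Tox, a factor of developing and chronically stimulated CD8 cells, had 27 UMIs in 14 chow diet members and 15 in 10 WD members, a log2 ratio of -1.26 with a ratio interval of 0.201 to 0.793. It was -1.71 with at least 2 coreceptor UMIs, from 13 and 7 UMIs. Cd69, which newly activated and late maturing cells carry, had 160 and 108 CPM, a log2 ratio of -0.55. Without the 1-UMI cells Cd69 was at -1.34 with a ratio interval of 0.190 to 0.771, and it was found in 14 of the 25 and 10 of the 50 cells. The ratio interval of Tox in those cells was 0.0968 to 0.772.

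**Figure D4:**
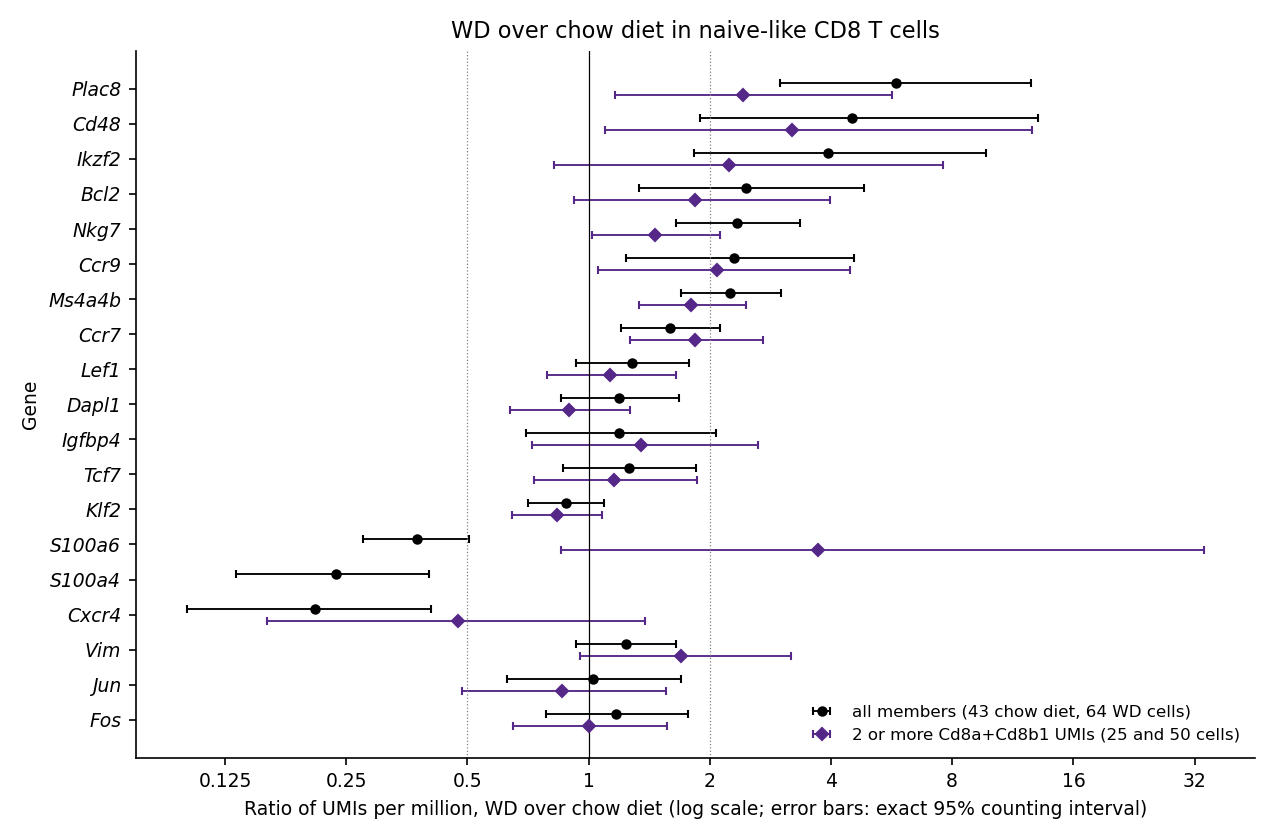
Ratio of CPM, WD over chow diet, on a log scale for genes of the members. Black circles are all members (43 and 64 cells), purple diamonds are members with at least 2 Cd8a and Cd8b1 UMIs (25 and 50 cells), bars are exact 95% counting intervals, dotted lines mark 2-fold, and a set with 0 UMIs in a library has no symbol. Cd48, Nkg7, Ccr9, Ms4a4b and Ccr7 lie above 1 in both sets, while S100a6 lies below 1 over all members and above 1 without the cells with 1 coreceptor UMI.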

How the data were processed

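The deposited values are raw UMI counts per gene and barcode. Per the labels' protocols, up to 10000 sorted cells were loaded for a 10x Genomics 3' v2 library. Per the submitters' processing notes, Cell Ranger and STAR were used with mm10, with no version named. Of 27998 genes, 27645 matched the name table. T cell receptor constant genes were not used here.

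Members, lists and comparisons were chosen with earlier results of these data known. Member UMIs were summed for each library and scaled to their total, and log2 ratios had 0.5 UMIs added, scaled by the total. Genes needed 30 UMIs. Named genes were the rule genes, the markers, the 10 highest and 10 lowest of each comparison, with intervals excluding 1 for diet, and list members; Cd163l1 was added after its values were seen. Shares have Clopper-Pearson intervals, sums Poisson and ratios conditional ones. The steps were tested on simulated data. Alternatives changed the limits, the minimum of UMIs, the added UMIs, scaling, depth and single cells. 3 were chosen after seeing the data, namely at least 2 coreceptor UMIs, shared barcodes and other-lineage UMIs. Python 3.11.15, numpy 2.4.6, scipy 1.17.1, pandas 2.3.3, scanpy 1.11.5 and matplotlib 3.10.9 were used. Some results of single genes are not reported here.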

Additional observations from a re-analysis of the deposited data

How the results depend on the processing

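The share of kept cells in the class moved beyond its counting interval when cells were gated after thinning to 1000 UMIs, to 8.15% in the chow diet and 4.66% in the WD library. The share of the CD8 gate then became 52.9% and 33.1%, and that of the T gate 21.5% and 14.2%. Of the 73 and 96 cells so gated, 30 and 45 were among the members. With at least 2 coreceptor UMIs the chow diet shares were 2.79%, 22.7% and 7.18%. Other limits moved no share beyond its interval.

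Genes at least 2-fold higher in the WD library numbered 31 with B cell and C1q sums of 0, 426 and 12 at minimums of 10 and 60 UMIs, and 8 with cells thinned. Genes lower numbered 29 with Cd8b1 required, 282 and 30 at the minimums, 17 with cells thinned, 27 with at least 2 coreceptor UMIs and 38 without cells rich in other-lineage genes. Against Ccl5-positive cells, genes higher numbered 61 with Cd8b1 required, 65 with B cell and C1q sums of 0, 280 and 55 at the minimums, 25 thinned, 45 with at least 2 coreceptor UMIs and 53 without cells rich in other-lineage genes. Genes lower numbered 445 and 104 at the minimums, 98 thinned and 381 without each gene's top cell.

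Against Ly6c2-positive cells, genes higher numbered 32 with Cd8b1 required, 35 with a thymocyte sum of 0, 25 with B cell and C1q sums of 0, 226 and 18 at the minimums, 9 thinned, 97 without top cells and 14 with at least 2 coreceptor UMIs. Genes lower numbered 60 at 10 UMIs, 8 with median scaling, and 2 with a thymocyte sum of 0, at 60 UMIs, thinned, with at least 2 coreceptor UMIs or without cells rich in other-lineage genes. Against CD4-gated cells, genes higher numbered 90 and 5 at the minimums and 4 thinned, and genes lower 84 with Cd8b1 required, 188 and 16 at the minimums, 16 thinned, 79 without top cells and 145 with at least 2 coreceptor UMIs.

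Log2 ratios of WD over chow diet turned sign with Cd8b1 required for Retnla (0.061), Mt1 (1.92) and Cd209a (3.55). With at least 2 coreceptor UMIs they turned for Retnla (2.02), Mt1 (1.39), Cd209a (3.11), Capg (0.076), S100a4 (4.58) and Tmem176a (2.83), and without cells rich in other-lineage genes for Retnla (0.28). Fewer cells enter these settings; beyond that the cause was not tested. No paired analysis was possible because each diet has 1 library. Genes given a diet ratio needed 30 UMIs over all members, so their values in the smaller sets can rest on fewer.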

Other observations

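Homing and adhesion genes other than those above were uneven. The integrin chain gene Itgb7 had 57 UMIs in 29 chow diet members and 59 UMIs in 34 WD members, 337 and 256 CPM, with a ratio interval of 0.518 to 1.11. Cd52, a surface glycoprotein of lymphocytes, had 1841 and 2004 CPM. The CD103 integrin gene Itgae, carried by some resident and recently made CD8 T cells and named after its values were seen, had a UMI in 5 and 10 members, 35.5 and 60.7 CPM. In Ccl5-positive CD8 cells Itgae had 0 UMIs in 75 chow diet cells and 1 UMI in 231 WD cells.

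The survival receptor gene Il7r was at 201 and 208 CPM in members, with a ratio interval of 0.653 to 1.66 between diets. The chromatin organiser Satb1 was at 491 and 469 CPM, against 183 and 134 CPM in Ccl5-positive CD8 cells. Runx3, a factor that sets the CD8 lineage, had 16 and 35 UMIs, a log2 ratio of 0.67 and a ratio interval of 0.864 to 3.10.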
